A study of Mus musculus with 2 samples.

Results

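The meiotic entry regulators described here are 7 genes, Stra8, Gm4969, Meioc, Ythdc2, Zglp1, Dazl and M1ap, taken by their symbols from the 27998 genes counted in both libraries. All 7 symbols matched 1 gene each, and 5535 (Zglp1) to 225872 (Dazl) unique molecular identifiers (UMIs, 1 for each captured transcript) of each were counted in germ-like cells. The study asked what loss of the glucocorticoid receptor (GR, encoded by Nr3c1) does to female germ cells, and single-cell RNA sequencing was performed on ovaries of mouse embryos at E15.5 (days after conception). The KO library came from ovaries of 2 embryos with a homozygous deletion of GR, made with a β-actin Cre from an allele with floxed exon 3 (Nr3c1tm1.1Jda) and carried in every cell, so ovarian somatic cells lacked GR too. Homozygous animals do not live past birth and came from crosses between heterozygotes. The WT library came from 4 wild-type embryos. Both groups carried the Tg(Pou5f1-EGFP)2Mnn reporter, by which germ cells were sorted before 60 parts of them were mixed with 40 parts of somatic cells. Each genotype was pooled into 1 library, so the 2 libraries have no replicate, no test was run, and an effect of genotype cannot be told apart from differences between the pools of embryos, their sorting and their capture. All intervals below are 95% and cover counting error only.

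Fetal female germ cells leave mitosis and enter meiosis within the ovary. Retinoic acid and bone morphogenetic protein (BMP) signals induce STRA8, a transcriptional regulator that acts together with MEIOSIN, the product of Gm4969, to raise genes of meiotic prophase. ZGLP1 is a GATA-like zinc finger protein of the oogenic program downstream of BMP. DAZL is an RNA-binding protein of germ cells that makes them competent to respond to these signals. MEIOC and YTHDC2 form an RNA-binding complex that lowers transcripts of the mitotic program, and M1AP is a protein of meiosis I that is required for fertility in males. Prophase then begins with the loading of meiotic cohesins and the synaptonemal complex.

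The promoters of 5 of the 7 genes were in the RefSeq table for GRCm38.p6. Those of Stra8, M1ap and Zglp1 are shown because these 3 genes moved most along the germ cell order or between the libraries. Each run, 5′ to 3′ on the gene strand, holds the 250 bases before the annotated start, with the motifs that were found in capitals. The Stra8 stretch is chr6:34920698-34920947 on the plus strand, that of M1ap is chr6:82946672-82946921 on the plus strand, and that of Zglp1 is chr9:21067094-21067343 on the minus strand.
Stra8: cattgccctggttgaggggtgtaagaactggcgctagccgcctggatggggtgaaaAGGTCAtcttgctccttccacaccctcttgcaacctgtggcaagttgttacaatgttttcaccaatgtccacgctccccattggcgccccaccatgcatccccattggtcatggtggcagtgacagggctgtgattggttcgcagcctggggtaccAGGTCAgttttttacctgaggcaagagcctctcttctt
M1ap: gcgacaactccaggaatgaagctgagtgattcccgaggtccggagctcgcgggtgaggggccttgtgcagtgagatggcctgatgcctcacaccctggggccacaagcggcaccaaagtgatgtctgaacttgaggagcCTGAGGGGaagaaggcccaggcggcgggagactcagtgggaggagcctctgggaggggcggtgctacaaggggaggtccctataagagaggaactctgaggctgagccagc
Zglp1: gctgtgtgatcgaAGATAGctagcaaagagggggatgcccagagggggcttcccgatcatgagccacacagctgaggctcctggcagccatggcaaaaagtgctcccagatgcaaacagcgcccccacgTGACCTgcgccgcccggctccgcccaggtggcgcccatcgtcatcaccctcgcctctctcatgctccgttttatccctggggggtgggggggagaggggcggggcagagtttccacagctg

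The Stra8 promoter held the retinoic acid receptor half-site AGGTCA at positions -194 to -189 and -38 to -33, counted from 0 at the annotated start, both on the gene strand. M1ap held 1 match to the STRA8-MEIOSIN motif CNCCTCAG, at -111 to -104 on the other strand. Zglp1 held AGGTCA at -121 to -116 on the other strand and the GATA motif AGATAG at -237 to -232. Dazl held CNCCTCAG at 15 to 22, past its start. No match to these motifs was found in the window of Meioc, and no window held the GR half-site AGAACA. Of 32817 distinct promoter windows of 300 bases, 16.3% held AGGTCA, 7.94% CNCCTCAG, 19.0% AGAACA and 29.8% the GATA motif, on either strand. The GATA motif was the letters GATA with A or T before them and A or G after them. The matches are a description of these letters.

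All 7 members are protein-coding genes in the GENCODE annotation of GRCm38. Stra8 lies on chromosome 6 from 34920163 to 34939344 and M1ap on the same chromosome from 82946902 to 83030309. Gm4969 spans 19099046 to 19118368 of chromosome 7, Zglp1 21062393 to 21067093 of chromosome 9, Meioc 102663716 to 102682237 of chromosome 11, Dazl 50279395 to 50293636 of chromosome 17, and Ythdc2 44827746 to 44889724 of chromosome 18. Zglp1 shares 1003 of its 1088 exon bases with Gm49373 on the same strand, so its counts are uncertain where reads of both could be assigned to it. The genes that overlap M1ap share no exon base with it. The RefSeq starts used for the Stra8 and M1ap promoters lie inside these spans.

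Limits on cells left 9045 of 11430 barcodes in WT and 15502 of 17829 in KO, from totals of 168483330 and 186117981 UMIs. Clusters were named from marker genes, and 6809 WT and 10218 KO cells were germ-like, with medians of 17113 and 11329 UMIs. The libraries shared 27 barcodes among the cells kept. Nr3c1 read 71.8 counts per 1000000 UMIs (CPM, pooled over cells) in WT germ-like cells and 11.6 in KO, although reads near the 3-prime end lie outside the deleted exon and so do not measure the deletion itself. All 48 somatic marker genes were detected in germ-like cells of both libraries, and their summed level was 146 CPM in WT and 198 in KO. Values from cells thinned to equal depth, and from cells with few somatic marker UMIs, are given with the results where they moved.

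All 7 members were higher in germ-like cells than in the 7 somatic-like and blood classes, of which the erythroid-like cells (15 in WT, 54 in KO) came nearest, except for Gm4969 in WT, where 26 perivascular-like cells did with 3 UMIs. Stra8 read 249 CPM in WT and 381 CPM in KO germ-like cells, against 16.3 and 40.2 in granulosa-like cells and 33.4 and 67.5 in theca-like cells. M1ap read 340 and 493 CPM in germ-like cells, against 33.5 and 75.9 in granulosa-like cells. As a measure of germ cell RNA in other classes, the level of 8 germ cell markers in granulosa-like cells was, at the median, 9.44% of that in germ-like cells in WT and 15.6% in KO. The 7 members lay between 6.55% (Stra8) and 15.6% (Ythdc2) there in WT, and between 10.5% (Stra8) and 21.9% (Ythdc2) in KO. Ythdc2 was above the highest of the 8 markers (11.7% in WT, 16.7% in KO), so its level in granulosa-like cells need not be germ cell RNA alone. Zglp1 was above that highest marker in WT only, at 13.1%, on 36 UMIs. Scrublet marked 4.36% of WT and 10.1% of KO granulosa-like cells as doublets. Germ cell RNA in somatic-like cells was thus higher in the KO library, and its part in the comparison of KO with WT was tested only by the subtraction given below.

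To compare shares of cells, each cell was thinned to 5000 UMIs, which left out 612 KO germ-like cells and none of WT. A UMI of Dazl was then present in 95.2% of germ-like cells in both libraries, of Meioc in 75.5% of WT and 75.4% of KO cells, and of Ythdc2 in 47.0% and 48.2%. Stra8 was detected in 24.8% of WT cells (interval 23.8 to 25.8) and 36.9% of KO cells (35.9 to 37.8). For M1ap the shares were 64.0% (62.8 to 65.1) and 73.1% (72.2 to 74.0). Gm4969 was detected in 16.4% and 18.1%, and Zglp1 in 8.84% and 8.85%. In granulosa-like cells the shares of Stra8 were 3.81% and 6.48%, and those of Zglp1 0.763% and 0.680%. Without thinning, Stra8 was detected in 38.5% of WT and 45.9% of KO germ-like cells, whose depths differ.

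**Figure D1:**
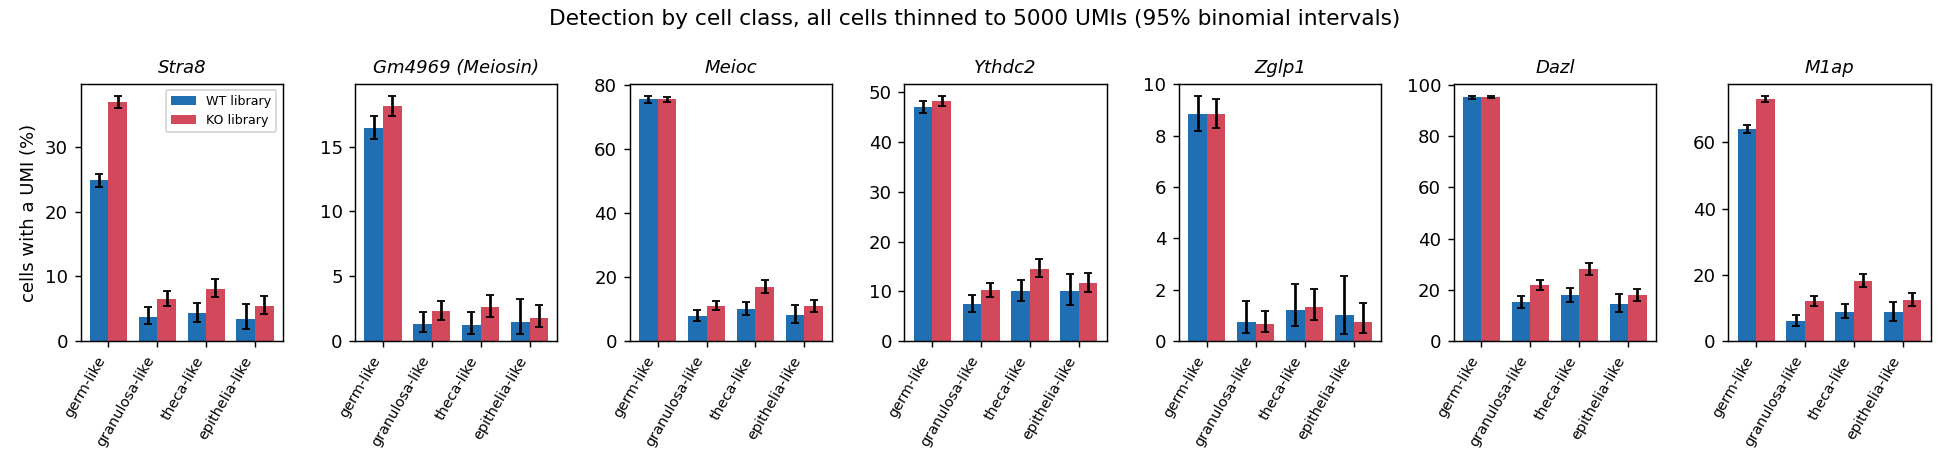
Share of cells with a UMI of each member (percent, vertical axis) in germ-like cells and the 3 largest somatic-like classes, with every cell thinned to 5000 UMIs; blue bars are the WT library, red bars the KO library, and error bars are exact 95% binomial intervals. Germ-like bars stand far above somatic-like bars for all 7 genes, and the libraries separate among germ-like cells for Stra8 (24.8% against 36.9%) and M1ap (64.0% against 73.1%).

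Germ-like cells of both libraries were ordered by the UMIs of 21 prophase genes over those of 13 premeiotic genes, none of them a member, and divided into 10 bins of equal size. In bin 1 the median cell held 23.5 premeiotic UMIs in WT and 16 in KO, and from bin 3 onward it held at most 5. Rec8, a meiotic cohesin that was not used for the order, fell from 112 to 1.54 CPM between bins 1 and 10 in WT and from 106 to 1.10 CPM in KO. More of the KO cells lay early: bin 1 held 504 WT cells (7.40%, interval 6.79 to 8.05) and 1199 KO cells (11.7%, 11.1 to 12.4). The order used UMIs before thinning, and KO cells were shallower, so a cell's place also depends on its depth. In bin 10 the median cell held 0 premeiotic UMIs in both libraries, and 205 prophase UMIs in WT against 144 in KO. The part of depth in these shares was not tested.

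Along the order, 4 of the 7 members (Stra8, Zglp1, Dazl and M1ap) differed at least 1.5-fold between their highest and lowest bin over both libraries. Of the 9114 genes compared, 54.1% did so, so this share is close to that of all genes. The shape differed between members, and 3 patterns were seen.

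Stra8, Zglp1 and Dazl were highest in bin 1 and fell after it. Stra8 read 1455 CPM in bin 1, 604 in bin 2, 220 in bin 3, 94.9 in bin 5 and 27.4 in bin 10 of WT. In KO it read 1420, 720, 299.7, 127 and 45.2 CPM in the same bins. The fall was 53.1-fold in WT and 31.4-fold in KO, and most of it had passed by bin 3. The levels in bin 10 lie between those of Stra8 in granulosa-like cells (16.3 and 40.2 CPM) and theca-like cells (33.4 and 67.5 CPM), and were not told apart from them. Zglp1 fell from 69.5 to 10.2 CPM in WT and from 63.4 to 7.95 CPM in KO, which is 6.80-fold and 7.98-fold. Its level in granulosa-like cells was 2.96 CPM in WT and 3.00 CPM in KO, below its lowest bin. Dazl, the most abundant member by UMIs, fell only from 1428 to 800 CPM in WT (1.78-fold) and from 1331 to 724 CPM in KO (1.84-fold), and was thus kept at a high level throughout.

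M1ap was highest in bin 2. It read 444 CPM in bin 1, 501 in bin 2, 349 in bin 3 and 298 to 324 in the later bins of WT. In KO the values were 536, 719, 554 and 402 to 485 CPM. Each KO bin was above the WT bin of the same place.

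Gm4969, Meioc and Ythdc2 stayed under the 1.5-fold limit in this order. Gm4969 lay between 30.3 and 44.5 CPM in WT and between 37.9 and 50.7 CPM in KO, with its highest value in bin 10 of both. Meioc lay between 303 and 376 CPM in WT and between 310 and 372 CPM in KO, and was also highest in bin 10. Ythdc2 lay between 116 and 144 CPM in WT and between 130 and 155 CPM in KO, highest in bin 2. The intervals of neighbouring bins overlapped in most pairs. For some members the size of the change depended on how cells were ordered. Between the highest and lowest of 5 stages (each of 2 bins) in WT, Gm4969 differed 1.43-fold in the main order, 1.85-fold by z-scores and 3.30-fold by the first principal component. The same 3 orders gave 1.55-fold, 1.33-fold and 6.22-fold for M1ap and 1.63-fold, 1.36-fold and 2.32-fold for Dazl. Ythdc2 stayed at or under 1.33-fold and Meioc at or under 1.49-fold in all 4 orders tried.

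**Figure D2:**
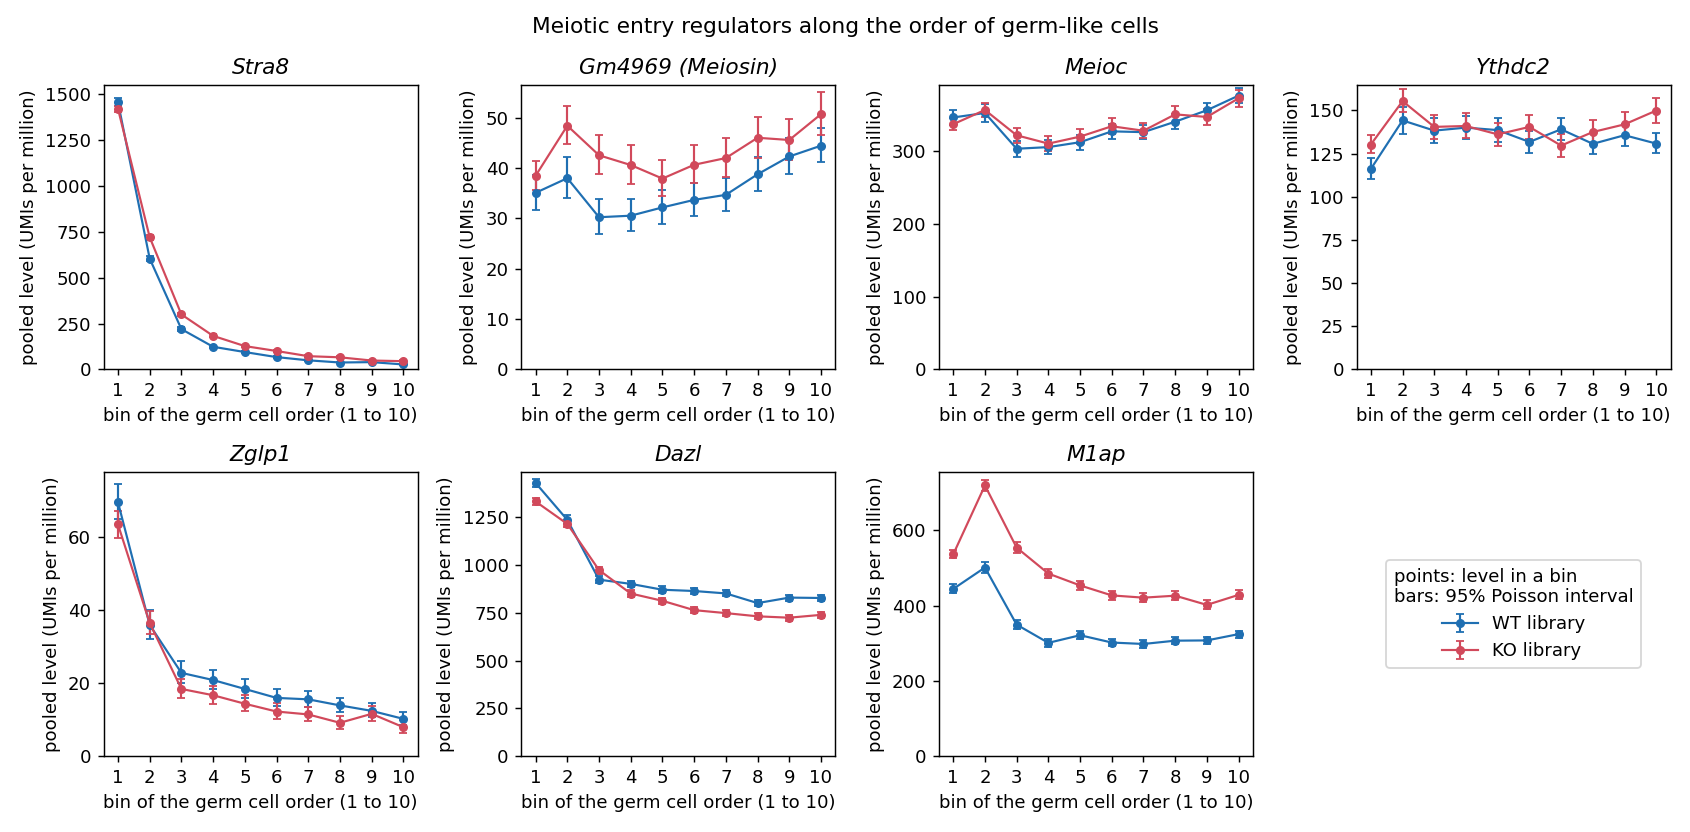
Pooled level of each member (CPM, vertical axes from 0) in 10 bins of the germ cell order (horizontal axes), with WT in blue, KO in red and 95% Poisson intervals. Stra8 falls from 1455 to 27.4 in WT and from 1420 to 45.2 in KO, M1ap is highest in bin 2 at 501 and 719, and Meioc and Ythdc2 differ at most 1.24-fold between bins.

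Because levels moved fastest at the beginning, the first 20% of the order was also divided into 10 steps of 2% of the cells, a choice made after the 10 bins had been seen. Zglp1 was at its highest in step 1 of WT (93.3 CPM, interval 82.4 to 105) and in step 2 of KO (79.7 CPM, 71.0 to 89.1), where steps 1 and 2 overlapped within each library. Stra8 was highest in step 2 of both, at 1545 CPM in WT and 1621 in KO. In steps 1, 3 and 4 it read 1464, 1517 and 1468 CPM in WT and 1259, 1533 and 1414 CPM in KO. Ythdc2 rose from 71.3 CPM in step 1 to 153 in step 4 of WT and from 83.6 to 177 CPM in KO. Gm4969 rose from 20.9 to 39.8 CPM between steps 1 and 2 of WT and from 23.9 to 40.1 CPM in KO. Meioc rose from 276 to 394 CPM between steps 1 and 5 of WT and from 258 to 396 CPM in KO. Dazl also rose at first, from 1253 CPM in step 1 to 1499 in step 2 of WT. In KO it rose from 1160 CPM in step 1 to 1416 in step 4. By step 10 Dazl had fallen to 1046 CPM in WT and 1103 CPM in KO.

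M1ap rose over the same steps, from 210 CPM in step 1 to 597 in step 5 of WT, and from 232 CPM to 763 in step 7 of KO. Hence Zglp1 and Stra8 were already at or near their highest level in the cells that stood first, while M1ap, Ythdc2, Gm4969 and Meioc were at their lowest there. The order between M1ap and Ythdc2 is not resolved, since steps 4 to 7 of M1ap in WT overlap. Stra8 was lower in KO in step 1, at 1259 CPM (interval 1224 to 1295) against 1464 CPM in WT (1420 to 1509). In steps 2 to 7 the intervals of the libraries overlapped, and Stra8 parted after step 7, where it read 781 CPM in WT and 822 in KO. In step 8 it read 440 and 634 CPM, in step 9 396 and 623, and in step 10 288 and 488.

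**Figure D3:**
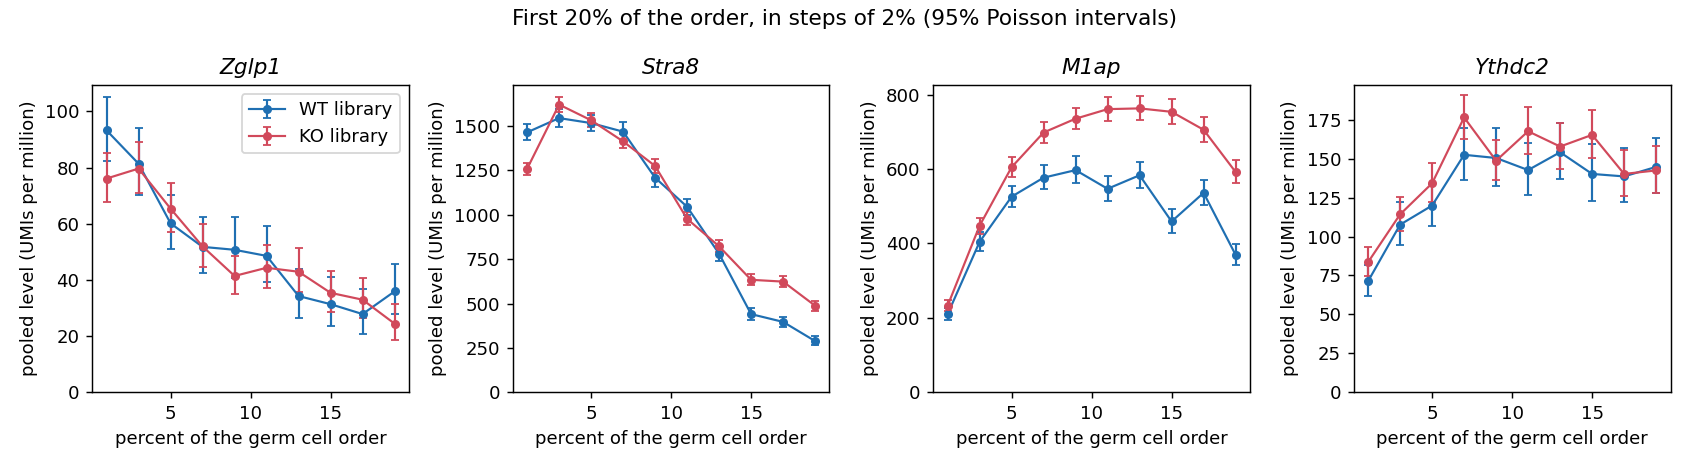
Pooled level (CPM, vertical axes from 0) of Zglp1, Stra8, M1ap and Ythdc2 in steps of 2% over the first 20% of the germ cell order (horizontal axes, percent), with WT in blue, KO in red and 95% Poisson intervals. Zglp1 and Stra8 start high and fall, and M1ap rises from 210 to 597 in WT and from 232 to 763 in KO. Stra8 is lower in KO in step 1 and higher in KO in the last 3 steps.

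For the members that moved at least 1.5-fold, the genes with the most similar course were found by Pearson correlation over 20 points (10 bins of both libraries) among 7869 genes. The points share libraries and depth, and the values are a description. Stra8 was followed most closely by Rnaseh2c, Tuba3a and Dbi (r of 0.995 each), of which Tuba3a, an alpha-tubulin, fell from 569 to 121 CPM. Nearest to Zglp1 were Ppp1ca, Slc16a1 and Sh3bgrl3 (r of 0.995, 0.994 and 0.993). Zfp638, Osgep and Zfp788 were nearest to Dazl (0.989, 0.988 and 0.986). The genes nearest to M1ap were Mpc1, Fgfr1op2 and Haus8 (0.982, 0.970 and 0.969), each highest in bin 2.

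KO was then compared with WT within 5 stages, each of 2 bins. Over all germ-like cells, Stra8 was higher in KO by 0.61 on the log2 scale (interval 0.59 to 0.63) and M1ap by 0.54 (0.52 to 0.55), and these were the 2 members past a log2 ratio of 0.5. Of 13826 genes with at least 100 UMIs, 7.72% were past it in either direction. By the difference in ln(CPM/100 + 1) that the study's limit of 0.25 refers to, the same 2 members were past it, at 0.32 and 0.30. Of the 13826 genes, 0.174% were past it. This difference stays small for genes of low CPM even at a large ratio, so the share depends on abundance and does not set the members apart. Held within stage and averaged with equal weight, no member was past 0.5, against 3.16% of 9820 genes. M1ap was higher by 0.49 (0.47 to 0.51), Stra8 by 0.45 (0.41 to 0.49), Gm4969 by 0.27 (0.21 to 0.33) and Ythdc2 by 0.060 (0.029 to 0.092). Zglp1 was lower, at -0.29 (-0.38 to -0.20), and Dazl at -0.11 (-0.12 to -0.095). The interval of Meioc, at 0.013 (-0.0069 to 0.033), held 0. These intervals cover counting error only, and the share of all genes whose interval leaves 0 was not counted. The median of all genes was -0.045.

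M1ap, the protein of meiosis I, was higher in KO in every stage. It read 469 CPM in WT and 614 CPM in KO in stage 1, 323 and 521 in stage 2, 311 and 441 in stage 3, 303 and 424 in stage 4, and 316 and 415 in stage 5. The log2 ratios were 0.39, 0.69, 0.50, 0.49 and 0.39. Under 11 other settings the ratio stayed above 0 in each stage, from 0.078 to 0.69. It was smallest where the cells were ordered by their first principal component, which gave a stage-matched value of 0.20. With the granulosa-like level of each library taken off, the stage-matched value was 0.39.

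Stra8 was similar in both libraries where it was highest, and higher in KO in the later stages. In stage 1 it read 1080 CPM in WT (interval 1066 to 1094) and 1121 CPM in KO (1110 to 1133), a log2 ratio of 0.054. In stages 2 and 3 it read 168 and 80.5 CPM in WT against 243 and 115 CPM in KO, and the ratios were 0.54 and 0.51. In stages 4 and 5 the levels were 43.8 and 33.5 CPM in WT and 69.5 and 47.0 CPM in KO, with ratios of 0.67 and 0.49. Granulosa-like cells read 16.3 CPM in WT and 40.2 CPM in KO, and theca-like cells 33.4 and 67.5 CPM. The granulosa-like level was below each of these last levels, and nearest to that of stage 5 in KO. With the granulosa-like level of each library taken off, the ratios of stages 2 to 5 were 0.42, 0.21, 0.095 and -1.32, and the stage-matched value was -0.11. That negative value comes from stage 5 alone, where 17.1 CPM were left in WT and 6.86 in KO, at a level not told apart from background, so it gives no direction for Stra8. When each cell was thinned to 5000 UMIs before the cells were ordered, the ratio of stage 1 was 0.42 and the stage-matched value 0.65. Thinning changed the counts, the order and the KO cells kept together, and their parts were not told apart. Ordering by z-scores gave a stage-matched value of 0.75.

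Zglp1 was lower in KO in stages 2 to 4 of this order, although over all germ-like cells the libraries read 22.5 CPM (WT) and 23.0 CPM (KO), a log2 ratio of 0.030 (-0.046 to 0.11). In stage 1 it read 54.7 CPM in WT and 51.9 in KO, with a ratio of -0.076 whose interval held 0. In stages 2, 3 and 4 it read 21.8, 17.1 and 14.7 CPM in WT against 17.6, 13.3 and 10.3 CPM in KO, and the ratios were -0.31, -0.36 and -0.51. In stage 5 it read 11.3 and 9.78 CPM, with a ratio of -0.21 whose interval also held 0. Stage 1, where Zglp1 was highest, held 15.3% of WT and 23.1% of KO germ-like cells, and with that difference in make-up the pooled ratio was near 0. The values rest on 214 to 472 UMIs per library in stages 2 to 5, and the stage-matched value was -0.12 under the order by z-scores and -0.17 under that by the first principal component. By z-scores the ratios of stages 1, 2 and 3 were 0.015, -0.062 and 0.034, and thinned cells gave 0.035 in stage 1. Under all 11 other settings the ratio stayed below 0 in stages 2, 4 and 5, but not in stages 1 and 3.

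Dazl was lower in KO by a small amount in every stage but stage 2. It read 1343 CPM in WT and 1281 in KO in stage 1, 911 and 913 in stage 2, 866 and 788 in stage 3, 825 and 740 in stage 4, and 828 and 731 in stage 5. The ratio of stage 1 was -0.068, which turned to 0.072 in thinned cells, and those of stages 3, 4 and 5 were -0.14, -0.16 and -0.18. Gm4969 was higher in KO in each stage, from 36.4 CPM in WT and 42.7 CPM in KO in stage 1 to 43.4 and 48.2 CPM in stage 5, with its largest ratio of 0.45 in stage 2. In stage 5 the ratio of 0.15 turned to -0.15 in thinned cells and to -0.025 under the order by the first principal component. Its stage-matched value was 0.045 under the order by the first principal component, and that of Dazl was -0.049 under the order by z-scores and -0.22 with the granulosa-like level taken off. Meioc and Ythdc2, the partners in the RNA-binding complex, had their highest ratios at 0.055 in stage 2 and 0.13 in stage 1, and their lowest at -0.028 in stage 5 and -0.013 in stage 4. With the granulosa-like level taken off their stage-matched values were -0.083 and -0.053, where for Ythdc2 that level need not be germ cell RNA.

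At a log2 ratio of 0.5, 0 of 7 members were past the limit in stage 1, against 5.89% of genes tested there. In stage 2, Stra8 and M1ap were past it, against 8.42% of genes, and the same 2 were past it in stage 3, against 6.86%. In stage 4, Stra8 was past it upward and Zglp1 downward, against 6.66%. In stage 5 it was 0 of 7, against 5.85%.

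**Figure D4:**
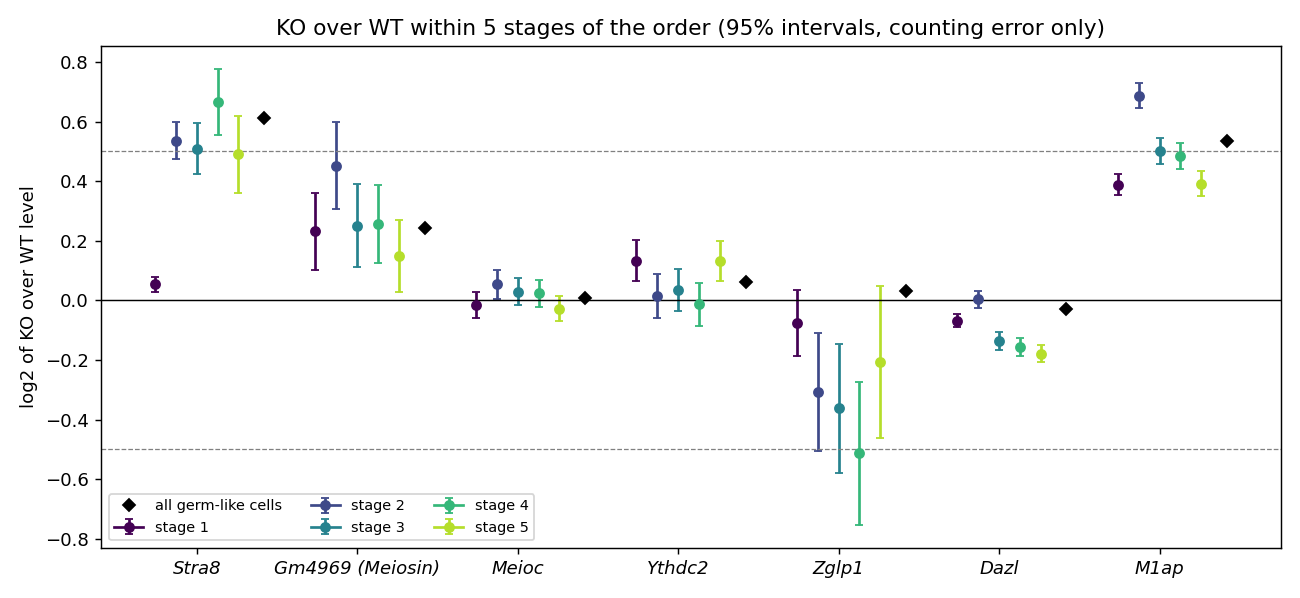
Log2 ratio of KO over WT (vertical axis) for each member in 5 stages of the germ cell order (circles with 95% intervals for a ratio of counts) and over all germ-like cells (diamonds), with dashed lines at 0.5 and -0.5. M1ap lies above 0 in all 5 stages (0.39 to 0.69), Stra8 only slightly so in stage 1 (0.054) and by 0.49 to 0.67 in the later stages (before the granulosa-like level is taken off). Zglp1 lies below 0 in each stage of this order (not in stages 1 and 3 by z-scores), with intervals that hold 0 in stages 1 and 5, while its diamond is at 0.030.

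Cells were also compared by whether they held a UMI of Stra8, within stage and library, after thinning to 5000 UMIs. The odds of detecting M1ap were 5.35 times higher in cells with a Stra8 UMI (Mantel-Haenszel odds ratio, interval 4.81 to 5.95), which ranked 16 among 9027 genes. Dazl followed at 3.96 (3.09 to 5.08, rank 31). The ratios of Meioc, Zglp1 and Gm4969 were 2.07, 1.90 and 1.80, and that of Ythdc2 was 1.08 (1.00 to 1.17). Thus 5 of the other 6 members were at 1.2 or above, and 27.3% of all genes were. The median of all genes was 0.938. In 50 strata of 2% of the order the ratio of M1ap was 5.68 and that of Zglp1 1.67.

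In WT stage 1, M1ap was detected in 86.6% of 745 cells with Stra8 and in 45.8% of 299 cells without it. In KO stage 1 the shares were 90.0% of 1764 cells and 51.7% of 429 cells. The gap narrowed toward the end of the order, where the shares in stage 5 were 80.3% and 63.5% in WT and 84.2% and 71.8% in KO. Zglp1 went with Stra8 most in stage 1, at 25.5% against 12.04% in WT and 21.3% against 8.86% in KO, and in stage 5 of WT the intervals of 5.70% and 5.09% overlapped. For Meioc the shares in stage 1 were 84.0% and 57.5% in WT and 80.9% and 63.2% in KO. Those of Ythdc2 were 46.2% and 40.1% in WT and 49.8% and 45.2% in KO. Cells with a Stra8 UMI made up 71.4% of stage 1 and 193 of the 1608 cells of stage 5 in WT, and 80.4% and 15.4% in KO, where 3.81% and 6.48% of granulosa-like cells held one.

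**Figure D5:**
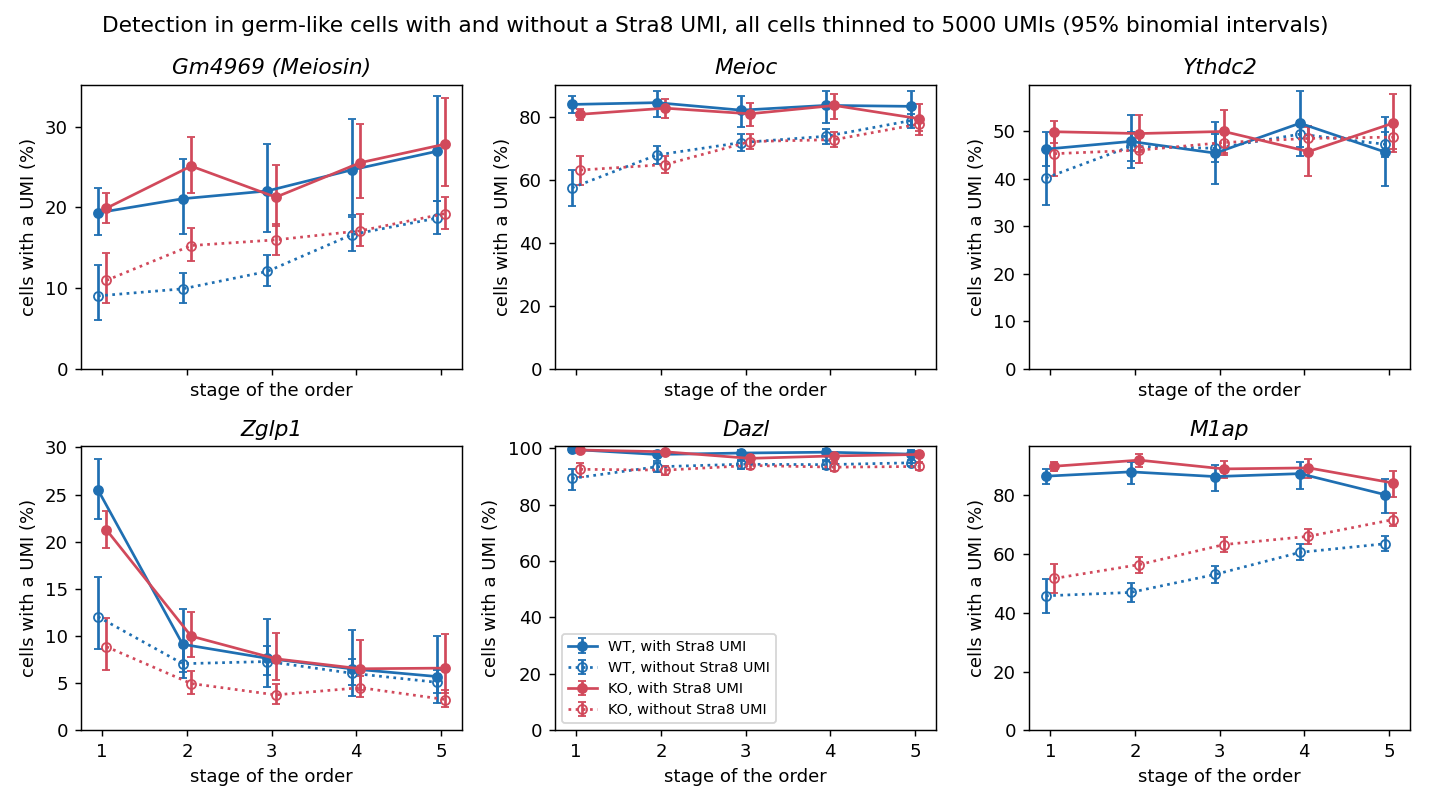
Share of germ-like cells with a UMI of each member (percent, vertical axes from 0) by stage of the order, for cells with a Stra8 UMI (filled circles, solid lines) and without one (open circles, dotted lines), WT in blue and KO in red, with exact 95% binomial intervals. M1ap shows the widest gap, 86.6% against 45.8% in WT stage 1, and Ythdc2 the smallest in that stage.

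The number of Stra8 UMIs in a thinned cell gave a finer scale, averaged over the stages in which each class held at least 20 cells (stages 1 and 2 in WT, 1 to 3 in KO). M1ap read 205, 495, 649 and 610 CPM in WT cells with 0, 1, 2 to 4 and 5 or more Stra8 UMIs, and 285, 658, 890.0 and 853 CPM in KO. It had thus reached its highest level at 2 to 4 UMIs, and the last 2 classes overlapped. Dazl read 709, 1228, 1520 and 1603 CPM in WT and 676, 1051, 1336 and 1492 CPM in KO. Meioc read 237, 344, 408 and 417 CPM in WT and 263, 344, 399 and 419 CPM in KO. Zglp1 was low in cells with 1 Stra8 UMI (21.01 CPM in WT, 21.1 in KO) and higher in those with 5 or more (54.9 and 43.7). Gm4969 read 20.1 CPM in WT cells without Stra8 and 44.8 to 52.4 CPM in the 3 other classes. In KO it read 31.6 CPM and 43.9 to 59.9 CPM. Ythdc2 lay between 104 and 147 CPM in WT and between 129 and 156 CPM in KO.

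Around the members, 4 lists of genes of the same pathway were measured, and 0 of the 29 with at least 100 UMIs in each stage were past a stage-matched log2 ratio of 0.5, against 3.16% of all genes. The minimum left out 6 of the 35 genes counted, among them Crabp2, which binds retinoic acid in the cell. It held 519 UMIs in WT and 406 in KO over all stages, with a stage-matched log2 ratio of -1.12 (-1.40 to -0.83). It read 12.4 CPM in WT and 9.12 in KO in stage 1. In stage 2 it read 2.58 CPM in WT and 2.74 in KO, a log2 ratio of 0.084 (-0.46 to 0.63). In stages 3 to 5 it read 3.04, 2.68 and 2.21 CPM in WT against 0.93, 0.80 and 0.64 CPM in KO, on 14 to 22 UMIs each in KO. Crabp2 thus missed the minimum through its low KO counts. Msx2, a homeobox gene that BMP signals induce, was at -0.47 (-0.72 to -0.21), and the intervals of the other 4 left out, Rarb, Rarg, Dmrt1 and Rec8, held 0. Id1, another gene that BMP signals induce, was counted outside the 4 lists. It read 346, 400, 337, 290 and 234 CPM in stages 1 to 5 of WT. In KO it read 288, 207, 202, 157 and 137 CPM, lower in each stage, and the cause was not tested. Of the listed receptors and targets of retinoic acid and BMP signals, 2 lay above 0 and 6 below. These 8 of the 12 listed genes had the UMIs needed, and their median was -0.17 against -0.045 for all genes. Crabp1, the other gene for such a protein, was at 0.44, and Bmpr1a, a BMP receptor, Smad1, which carries its signal, and Rxra, a retinoid X receptor, were at -0.32, -0.29 and -0.28. The repressors of meiotic entry lay at a median of 0.0076 (5 of the 6 listed had the UMIs needed), with Max at -0.14 and Mga, its partner, at 0.050. Among partners and targets of the MEIOC-YTHDC2 complex, the exoribonuclease gene Xrn1 was at -0.21, the cyclin gene Ccna2 at -0.14 and Rbm46 at -0.034.

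Early prophase genes that were not used for the order lay higher in KO, 11 of 13 measured above 0 and 2 below, with a median of 0.23 against -0.045 for all genes. Of these, Dmc1, which encodes a meiotic recombinase, was at 0.36 (0.33 to 0.39), Prdm9, which marks sites of recombination, at 0.34, Rad21l, a meiotic cohesin gene, at 0.33, and Sycp3, a gene of the chromosome axis, at 0.33. Mei1, named as the lower of the 2 below 0, was at -0.15. Since the order itself was drawn from prophase genes, a difference of that program between the libraries and a shift of the stages cannot be told apart.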

How the data were processed

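Single-cell RNA sequencing libraries of WT and KO ovaries were captured by the authors with 10X 3-prime chemistry. The values deposited are raw UMI counts, whole numbers for each gene in each cell barcode, made by the authors with Cell Ranger (3.0.2 per the file headers), and the submitters' processing notes name mm10. Cells were kept within the study's limits (1500 to 6500 genes and 5500 to 40000 UMIs for WT, 1200 to 5500 and 3000 to 30000 for KO, under 10% mitochondrial UMIs). The counts of kept cells were clustered without the members (2000 variable genes, 30 components, Leiden resolution 0.5; scanpy 1.11.5, leidenalg 0.10.2), and clusters were named -like from marker genes, so the classes are rebuilt and can differ from those of the study. Doublets were not removed in the main analysis; Scrublet removal was an alternative. The order was the log ratio of prophase to premeiotic UMI sums, each plus 1. Levels carry exact Poisson, shares Clopper-Pearson and ratios exact conditional intervals, and the odds ratio a Mantel-Haenszel interval. The ratio and odds ratio steps were tested on simulated data. Levels of different genes were not compared, since reads come from the 3-prime end. The members, gene lists and motifs were chosen with earlier results of these data known. All members were named. Likeness was taken among genes of at least 10 CPM in their highest bin, outside the members and order lists. Up to 4 genes of each pathway list with the largest stage-matched ratio were named among those of at least 100 UMIs in each stage. Besides them, Mei1, Id1 (on no pathway list) and the 6 genes under that minimum were named. Majin and Terb2 had no matching symbol. Alternatives changed cell limits, doublets, thinning, scaling, the order, strata and thresholds.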

Additional observations from a re-analysis of the deposited data

How the results depend on the processing

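Each KO over WT value within stage, each odds ratio and the counts of genes were recomputed under the alternatives, and the fold along the order under other orders. With the level of granulosa-like cells subtracted, which was chosen after seeing the data, the stage-matched log2 ratio of Stra8 was -0.11, through stage 5 alone, that of Ythdc2 turned to -0.053, and those of Gm4969, Meioc, Dazl and M1ap were 0.17, -0.083, -0.22 and 0.39. No other setting turned the sign of a stage-matched value whose interval left 0. Thinning to 5000 UMIs gave 0.65 for Stra8, 0.20 for Gm4969, -0.018 for Meioc and -0.076 for Dazl. Ordering by z-scores gave 0.75 for Stra8, -0.12 for Zglp1, -0.049 for Dazl and 0.54 for M1ap. Ordering by the first principal component gave 0.32 for Stra8, 0.045 for Gm4969, -0.068 for Meioc, 0.11 for Ythdc2, -0.17 for Zglp1, -0.18 for Dazl and 0.20 for M1ap. Ordering without Pou5f1, also chosen after seeing the data, gave 0.40 for Stra8, -0.14 for Dazl and 0.44 for M1ap. Removing cells with 5 or more somatic marker UMIs gave -0.12 for Dazl and 0.44 for M1ap, and scaling by totals that left out mitochondrial, ribosomal protein and haemoglobin genes gave -0.13 for Dazl, 0.47 for M1ap and -0.011 for Meioc, where the median of all genes moved by -0.025. The mean over cells gave 0.45 for M1ap. Thinning to 8000 UMIs gave odds ratios of 1.99 for Gm4969 and 2.63 for Meioc. A minimum of 20 UMIs left 2228 genes past 0.5 in place of 1067, and a limit of 1 left 157. Across cells, the Spearman rho of the order was 0.757 with that by z-scores, 0.919 with that without Pou5f1 and 0.416 with the first principal component. The fold of Stra8 between its highest and lowest stage in WT ranged from 20.9 to 141 over these orders. The cause of these changes was not tested. No paired analysis was possible because each group holds 1 library. Low counts limit Zglp1 and Gm4969 most.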

Other observations

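Pou5f1, which encodes OCT4 and drives the reporter used for the sort, did not fall steadily along the order, although it was 1 of the 13 premeiotic genes that drew it. In WT it read 102 CPM in the first step of 2% of the cells, 20.5 in the fourth and 99.4 in the last. In KO it read 85.4, 26.1 and 44.4 CPM in the same steps. It was thus lowest where Stra8 and M1ap were both high, and higher again after them, more so in WT. It then fell to 6.42 CPM in bin 10 of WT and 2.19 CPM in KO. The level in WT was above that in KO in each of the 10 bins. Dppa5a, a pluripotency-associated gene of the same list, fell from step to step instead, from 616 to 139 CPM in WT and from 725 to 177 CPM in KO over the first 20% of the order.

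The 7 proliferation genes did not share a direction along the order. Mki67 read 124 CPM in bin 1 and 181 in bin 10 of WT, and 134 and 192 CPM in KO, and Cdk1 was also higher at the end in both libraries. Top2a read 689 and 562 CPM in WT and 609 and 532 CPM in KO, Pcna 104 and 67.9 CPM in WT and 89.1 and 61.6 CPM in KO, and Mcm6 92.0 and 66.7 CPM in WT and 95.9 and 66.1 CPM in KO. Mcm5 was at 161 and 159.6 CPM in WT and 159 and 147 CPM in KO. Ccnb1 was higher in bin 10 than in bin 1 in WT but not in KO. Its level fell steeply within bin 1 in both libraries, so these bins do not give its course. In step 1 of 2% of the cells it read 37.2 CPM in WT and 32.9 CPM in KO, its highest over the first 20% of the order. By step 3 it had fallen to 4.16 CPM in WT and 14.6 CPM in KO.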
